A study of Mus musculus with 80 samples.

Results

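The apolipoprotein genes and Mttp were followed through liver, muscle, brown fat (BAT) and inguinal white fat (iWAT) of mice that lack UCP1, FGF21, both or neither. They are Apoa1, Apoa2, Apoa4, Apoa5, Apob, Apoc1, Apoc2, Apoc3, Apoe and Mttp, chosen by gene symbol, and make up 10 of the 32764 genes counted. The 80 libraries were made from male C57BL/6J mice, 5 for each of 16 groups of tissue and genotype. The genotypes were WT, homozygous FGF21 KO, homozygous UCP1 KO and the homozygous double knockout (dKO), which the labels spell UCP1/FGF12 and the study describes as UCP1/FGF21. All mice, WT included, were bred at 30 °C (near thermoneutrality), moved at 10 to 12 weeks of age to room temperature with a high-fat diet for 3 weeks, and sampled after food had been withdrawn for 2 to 3 h. The knockouts are constitutive and reach the whole animal, so an effect of an allele inside a tissue and one that reaches it from elsewhere cannot be told apart. The labels do not link libraries to single mice, so p-values measure the spread between libraries. Replicate numbers only name libraries and do not pair them.

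Lipoproteins carry triglyceride and cholesterol in blood. Those that deliver triglyceride are built around ApoB, which microsomal triglyceride transfer protein (MTTP, gene Mttp) loads with lipid in the endoplasmic reticulum of hepatocytes and enterocytes. ApoA1 and ApoA2 are the structural proteins of high-density lipoprotein, ApoC2 activates lipoprotein lipase, ApoC3 and ApoC1 slow the clearance of triglyceride, ApoA5 promotes it, ApoA4 travels on intestinal and hepatic particles, and ApoE is the ligand by which remnants are taken up. Liver makes most of them, whereas ApoE and ApoC1 are also made by macrophages and adipocytes. FGF21 is a hormone of liver and fat that acts on lipid metabolism, and UCP1 is the uncoupling protein of brown fat.

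Most members lie in 2 gene clusters (GENCODE annotation, GRCm38). Apoe (chr7:19696109-19699188), Apoc1 (chr7:19689481-19692660) and Apoc2 (chr7:19671579-19677941) share the minus strand within 27.6 kb, 25.9 Mb from Fgf21. Apoa1 (chr9:46228580-46230466), Apoc3 (chr9:46232933-46235636), Apoa4 (chr9:46240696-46243459) and Apoa5 (chr9:46268633-46271919) lie within 43.3 kb, with Apoc3 on the opposite strand from the others. Apoa2 (chr1:171225054-171226379), Apob (chr12:7977648-8016835) and Mttp (chr3:138089854-138144968, minus strand) stand alone. An opposite-strand gene, Trmt10a, overlaps the 5′ end of Mttp, and a read-through gene joins Apoc2 with its neighbour Apoc4. Without the strand option of the counting, reads in such overlaps cannot be assigned with certainty.

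A promoter window was found for 8 of the 10 members in RefSeq (GRCm38.p6). Shown here are the bases before the start sites of Apoe and Apoc2, the pair from the chromosome 7 cluster that passed the test in opposite directions in BAT, and of Apob for a gene with little signal outside liver. Each is printed 5′ to 3′ on its own strand and leaves out every base that GENCODE annotates as exon of any gene. Capitals mark exact matches, on either strand, to motifs. The core element bound by nuclear receptors was searched as AGGTCA. Part of the element bound by HNF1, a hepatocyte factor, was searched as GTTAAT. The C/EBP element was searched as TTGCNNAA, and the TATA box was searched as TATAAA. An element bound by HNF4A, searched as CAAAGTCCA, and the CCAAT box were also sought, and overlaps between motifs were allowed.
Apoe, chr7:19699189-19699438 (minus strand): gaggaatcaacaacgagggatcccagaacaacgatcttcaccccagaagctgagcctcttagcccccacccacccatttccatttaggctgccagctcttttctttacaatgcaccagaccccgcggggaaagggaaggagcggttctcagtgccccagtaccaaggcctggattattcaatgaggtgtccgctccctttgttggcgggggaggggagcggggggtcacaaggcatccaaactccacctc
Apoc2, chr7:19677942-19678082 (minus strand): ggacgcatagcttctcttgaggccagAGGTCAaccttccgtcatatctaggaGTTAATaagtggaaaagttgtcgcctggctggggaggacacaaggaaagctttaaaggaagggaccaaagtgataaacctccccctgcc
Apob, chr12:7977427-7977647 (plus strand): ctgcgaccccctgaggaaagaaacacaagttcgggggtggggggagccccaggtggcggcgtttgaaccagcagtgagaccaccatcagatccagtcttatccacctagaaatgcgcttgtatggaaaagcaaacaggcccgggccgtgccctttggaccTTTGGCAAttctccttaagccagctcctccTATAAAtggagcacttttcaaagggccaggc
The Apoe stretch of 250 bases, from the first of 3 windows that RefSeq gives for this gene, held none of these letters, while the second window held TATAAA and the third the HNF1 motif. The Apoc2 stretch of 141 bases held AGGTCA at 115 bases and GTTAAT at 89 bases before the start site. The Apob stretch of 221 bases held a C/EBP match on the opposite strand, TTTGGCAA, beginning 90 bases before the RefSeq start site, and TATAAA beginning 60 bases before it. Among 32851 promoter windows of 250 bases, the nuclear receptor motif occurred in 14%, the HNF1 motif in 6.43%, the C/EBP motif in 9.56%, the TATA motif in 12.4%, the HNF4A motif in 0.384% and the CCAAT box in 33.8%. The Mttp window held none of them and is not printed because it overlaps annotated exons.

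Depth ran from 28691377 to 50380696 gene-assigned reads, with a median of 38022853. Expression is given as CPM, read counts scaled to the effective size of each library within a tissue, and log2 fold changes come from edgeR with p-values adjusted over all genes tested in the tissue. A gene is called where the adjusted p is under 0.01. All 10 members passed the low-count filter in liver, BAT and iWAT, and 9 passed in muscle, where Apoc2 had 0 to 11 counts. Fgf21 had a mean of 0.0532 CPM or less in every FGF21 KO and dKO group, against 1.76 CPM in WT liver, 0.25 in WT BAT and 0.147 in WT iWAT. In muscle it was 0.0385 CPM in WT and 0 in FGF21 KO and dKO, too low to check the labels there. Ucp1 was still counted in the libraries labelled UCP1 KO: the mean was 942 CPM in BAT against 5807 in WT, and in iWAT it was 379 CPM against 7.54 in WT. In dKO it was 1473 CPM in BAT against 6493 in FGF21 KO, and 19.5 in iWAT against 4.65. Counts per gene do not show which part of a gene the reads come from, so Ucp1 does not check the UCP1 KO and dKO labels, and in iWAT it goes against them. Since Ucp1 leaves the labels unchecked, every direction given for UCP1 KO or dKO refers to the libraries labelled so. Skeletal muscle markers were uneven in BAT, where the summed CPM of 10 markers had a median of 100.3 in WT, 98.3 in FGF21 KO, 447 in UCP1 KO and 4492 in dKO, and 9 of the 20 iWAT libraries held lymph node markers at a score of 4 or more, where a score averages log2(CPM + 0.1) over a marker list.

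In WT mice every member was highest in liver. With CPM scaled within each tissue, the members that reached 1% of their liver level in at least 1 other tissue were Apoe, Apoc1 and Mttp. For Mttp this depended on the scaling. In the fit over all 4 tissues given below it stayed under 1%, at log2 differences of 6.74 to 7.43 from liver. Apoe had a mean of 8740.3 ± 927 CPM in liver (SD, n = 5 here and below), 2835 ± 600.4 in iWAT, 413 ± 88.1 in BAT and 65.8 ± 7.71 in muscle, and none of these groups overlapped. Apoc1 was at 2870.1 ± 298 CPM in liver, 342 ± 35.2 in BAT, 183 ± 32.7 in iWAT and 3 ± 2.32 in muscle, again without overlap. The fat depots thus stood in opposite order for these neighbouring genes, with Apoe higher in iWAT and Apoc1 higher in BAT. Mttp was at 432 ± 40.9 CPM in liver and nearly level elsewhere, with 5.34 ± 1.2 in iWAT, 4.82 ± 0.653 in BAT and 4.36 ± 0.745 in muscle, 3 groups that overlapped.

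Apob, the backbone of liver-made particles, had 6012 ± 681 CPM in liver and means of 0.591 to 1.09 in the other tissues. Apoa1 had 6852 ± 468 CPM and Apoa2 5140.2 ± 969 in liver, against 0.807 to 1.62 and 0.733 to 1.76 elsewhere. Apoa5 (1063 ± 198 CPM in liver) and Apoa4 (786 ± 116) had means under 0.2 CPM in the other 3 tissues. Apoc3 had 1679 ± 298 CPM in liver, 1.1 ± 0.182 in BAT, 0.944 ± 0.185 in iWAT and 0.172 ± 0.0925 in muscle. Apoc2 had 78.7 ± 3.43 CPM in liver, 0.48 ± 0.0871 in iWAT, 0.107 ± 0.0609 in BAT and 0.0441 ± 0.0462 in muscle, and its iWAT and BAT libraries did not overlap. For Apoa1, Apoa2, Apoa4, Apoa5 and Apob the libraries of BAT, iWAT and muscle overlapped between neighbours in the order of levels.

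**Figure D1:**
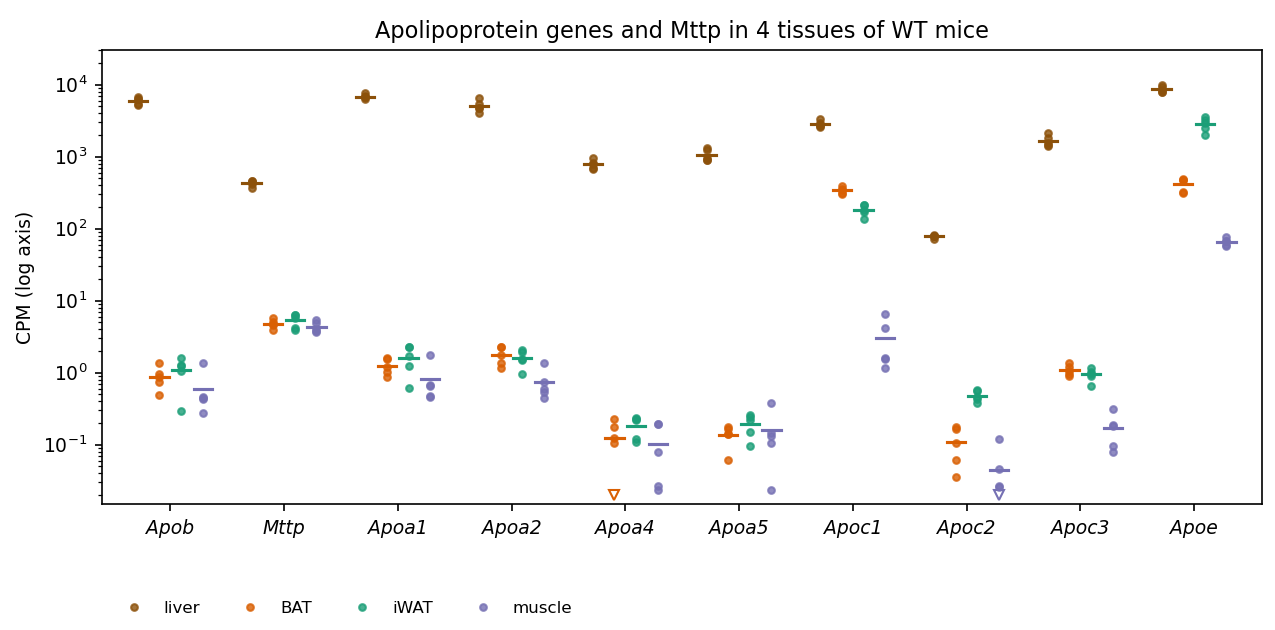
Level of each gene in the 5 WT libraries of each tissue, as CPM on a log axis. Points are libraries, bars are means, and open triangles at the bottom mark libraries with no count. All 10 genes were highest in liver, and Apoe in iWAT (mean 2835 CPM against 8740.3 in liver) came closest to its own liver level.

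In one edgeR fit over the 4 tissues of WT, all 10 members were called higher in liver than in BAT, iWAT and muscle, where 66.9%, 74.5% and 73.7% of 17216 genes were called in either direction. The log2 difference from liver ran from 3.53 (Apoc1) to 13.36 (Apoa5) in BAT, from 2.72 (Apoe) to 13.52 (Apob) in iWAT and from 6.74 (Mttp) to 13.41 (Apob) in muscle. This fit scaled all 4 tissues together, unlike the CPM above. With total counts as library size the median of all genes was at -1.14 in liver against iWAT, Apoe stood at 1.65 and Apob at 12.46 there, and all 10 members were still called in the 3 comparisons. Between the fat depots 5 of 10 members were called, against 59.9% of genes. Relative to iWAT, BAT had less Apoe (log2 fold change -2.14, SE 0.178, adjusted p = 2.66e-09) and less Apoc2 (-1.47, SE 0.331, adjusted p = 0.000601), and more Apoc1 (1.54, SE 0.335, adjusted p = 0.000465) and Apoc3 (0.85, SE 0.217, adjusted p = 0.00183). Mttp was called at 0.49 (SE 0.149, adjusted p = 0.00714), but the call was lost without iWAT replicate 4 or 5 or BAT replicate 2, 4 or 5, with RLE factors and with no filter (adjusted p up to 0.115 over all settings), and its direction depended on the scaling. With total counts as library size the median of all genes shifted by -0.85, and Mttp stood at -0.23, Apoc3 at 0.11 and Apoc1 at 0.81, none of them called. In BAT against muscle 4 of 10 members were called against 63.3% of genes, all higher in BAT: Apoc1 (6.47), Apoc3 (2.30), Apoe (2.30) and Apoa2 (0.91). The call of Apoa2 (adjusted p = 0.00884) was lost in 12 of 20 fits that left out a library (adjusted p up to 0.0282), with RLE factors and with no filter. In iWAT against muscle 5 of 10 were called against 73.8%: Apoc1 (4.94), Apoe (4.44), Apoc2 (2.38) and Apoc3 (1.45) were higher in iWAT and Mttp lower (-0.69), a direction that turned to 0.27 with total counts.

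Levels of different genes can be compared only per length, here as CPM per kb of exon. On that scale the order in WT liver was Apoa2 (9572 ± 1805), Apoa1 (5544 ± 379), Apoe (4088 ± 434), Apoc1 (3858 ± 401), Apoc3 (1656 ± 294), Apoa4 (433 ± 63.7), Apob (431 ± 48.8), Apoa5 (421 ± 78.4), Apoc2 (96.8 ± 4.22) and Mttp (69.6 ± 6.58). Apoe and Apoc1 overlapped between libraries, as did Apoa4, Apob and Apoa5 in sequence. The order of Apoc2 and Mttp depended on the length used: with the longest transcript they stood at 108 and 109. In WT BAT Apoc1 led with 459 ± 47.3 CPM per kb, ahead of Apoe with 193 ± 41.2, and the 8 other members were between 0.0537 and 3.29. In WT iWAT the order of these leaders was turned around, with Apoe at 1326 ± 281 and Apoc1 at 246 ± 43.9. In WT muscle Apoe had 30.8 ± 3.61 and Apoc1 4.03 ± 3.11. Together the 10 members took 2.76% to 3.62% of all counts in a liver library, 0.149% to 0.358% in iWAT, 0.0278% to 0.0883% in BAT and 0.00607% to 0.0183% in muscle.

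Outside liver some members stood at the level of hepatocyte markers and others well above it. Each library's level was expressed as a percentage of the liver mean and divided by the same percentage for the median of 8 hepatocyte markers (such as Ttr and the fibrinogen chains). The list holds 10 markers, and Alb and Trf were left out with their values known. A ratio of 1 means that a gene stands to liver as these markers do. Over the 20 libraries of each tissue the median ratio lay between 0.787 and 1.17 for Apoa1, Apoa4, Apoa5 and Apob, and between 1.24 and 1.55 for Apoa2. For Mttp it was 56.2 in BAT, 67.9 in iWAT and 53.2 in muscle. For Apoe it was 104, 1677 and 37.7, and for Apoc1 294, 301 and 3.76, in the same order. Apoc2 (4.99, 29 and 1.25) and Apoc3 (3.61, 2.76 and 1.03) stood above the markers in fat, and Apoc3 near them in muscle. In muscle the ratio of Apoc2 ran from 0 to 17.9 at 0 to 11 counts per library, too few to place it. Because every hepatocyte marker had counts in every group outside liver, the source of the low Apob, Apoa1, Apoa4 and Apoa5 counts there was not tested. Apoe, Apoc1 and Mttp in fat, and Apoe and Mttp in muscle, were at least 2.49 times the marker level in every library. High ratios were also seen in hepatocyte markers: those of Trf, the transferrin gene, were 35.7 in BAT, 1086 in iWAT and 22.2 in muscle, and in iWAT that of Alb was 3.39 and that of Serpina1a, one of the 8 markers kept, was 4.9. Against the median of all 10 markers the ratio of Apoe was 97.7, 1348 and 35.1, that of Mttp 54.4, 59.9 and 52.2, and that of Apob 0.858, 0.739 and 0.908.

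**Figure D2:**
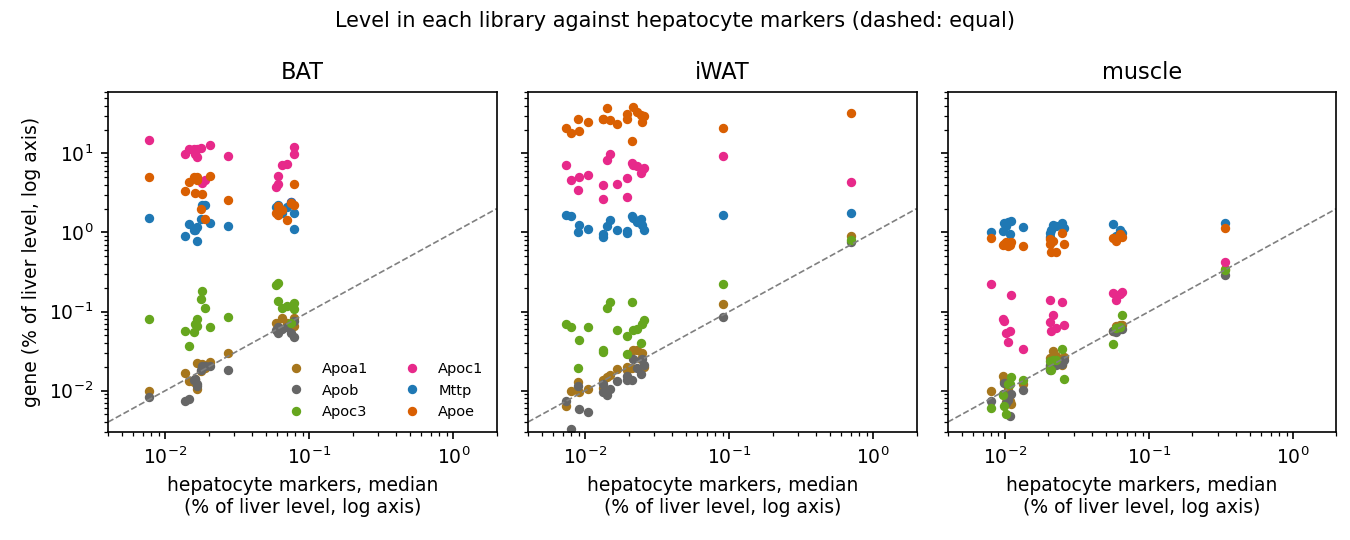
Level of 6 genes in each of the 20 libraries of BAT, iWAT and muscle, as percent of the mean liver level (vertical, log axis), against the median of 8 hepatocyte markers in the same library (horizontal, log axis). Points are libraries and the dashed line marks equal percentages. Apoa1 and Apob lie along the line in all 3 tissues, whereas Apoe, Mttp and, in fat, Apoc1 lie above it at any level of the markers.

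The response to loss of UCP1 was read from UCP1 KO against WT, with FGF21 present, and from dKO against FGF21 KO, without it. These comparisons share no library. In BAT, Apoe fell in both, while Mttp and Apoc2 rose in UCP1 KO. In UCP1 KO against WT, 3 of 10 members were called (2 higher, 1 lower), where 25.2% of 15729 genes were called, so the share of members was near the background. The median log2 fold change was 0.64 over the members and 0.01 over all genes. In dKO against FGF21 KO, 1 of 10 was called against a background of 13.5%, with a median of 0.99 over the members and 0.00 over all genes. An unadjusted p under 0.05 was seen in 6 members and 48.9% of genes in the first comparison, and in 10 members and 40% of genes in the second. DESeq2 called 3 members against 30.3% of genes, and 4 members against 19.5%.

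Apoe, the remnant ligand, had 323, 312, 473, 471 and 488 CPM in the WT libraries of BAT. The FGF21 KO libraries had 396, 259.7, 438, 420.0 and 497 CPM. The UCP1 KO libraries had 177, 241, 123, 159.8 and 157 CPM. The dKO libraries had 115, 139, 166, 185 and 153 CPM. Every library labelled UCP1 KO or dKO was thus below every WT and FGF21 KO library. The means were 413 ± 88.1 in WT and 171 ± 43.5 in UCP1 KO, which gave a log2 fold change of -1.27 (SE 0.192, adjusted p = 6.7e-05). Without FGF21 the means were 402 ± 88 in FGF21 KO and 152 ± 26.5 in dKO, which gave a log2 fold change of -1.41 (SE 0.193, adjusted p = 5.31e-05). The exact permutation test (two-sided) gave p = 0.00794 in each case, the smallest that 5 libraries against 5 allow. Both calls held without any 1 of the 20 libraries (log2 fold changes -1.42 to -1.17 and -1.53 to -1.32) and with each of the other settings tried (-1.69 to -0.98 and -1.61 to -1.19).

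Apoc1, which lies 3.45 kb from Apoe, was lower in most libraries labelled UCP1 KO but was not called. WT had 308, 309.9, 345, 351 and 394 CPM. UCP1 KO had 334, 109, 122, 127 and 53.1 CPM. In UCP1 KO 4 libraries were below all of WT, and replicate 1 was inside the WT range. The log2 fold change was -1.20 (SE 0.361, adjusted p = 0.0131), and without that library it was called (adjusted p = 0.000159). The dKO mean was 185 ± 88.7 CPM against 345 ± 74.1 in FGF21 KO (-0.90, SE 0.358, adjusted p = 0.0684), with libraries that overlapped.

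Apoc2, the activator of lipoprotein lipase, rose from a very low level. It had 1 to 6 counts in the WT libraries of BAT and 10 to 26 in UCP1 KO. In WT this corresponded to 0.0608, 0.0351, 0.105, 0.163 and 0.174 CPM. In UCP1 KO it corresponded to 0.697, 0.375, 0.265, 0.389 and 0.218 CPM, all above WT. The log2 fold change was 1.79 (SE 0.411, adjusted p = 0.00214, exact permutation p = 0.00794). In dKO the mean was 0.173 ± 0.0647 CPM against 0.0807 ± 0.0338 in FGF21 KO (1.07, SE 0.451, adjusted p = 0.0831). The call in UCP1 KO was lost in a fit of only UCP1 KO and WT (1.80, adjusted p = 0.0128). Apoc4, next to Apoc2 and joined to it by the read-through gene, was called in the same direction (1.68, adjusted p = 0.00566).

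Mttp, the lipid transfer protein of particle assembly, had 3.92, 4.81, 4.58, 5.07 and 5.7 CPM in WT. FGF21 KO had 4.94, 5.63, 3.45, 5.67 and 6.69 CPM. UCP1 KO had 5.93, 8.07, 8.29, 6.52 and 7.46 CPM. The dKO libraries had 7.59, 8.45, 6.77, 6.66 and 8.27 CPM. All UCP1 KO libraries were above all WT libraries, whereas FGF21 KO and dKO met at 6.69 and 6.66 CPM. The log2 fold change was 0.59 in UCP1 KO against WT (SE 0.149, adjusted p = 0.00432, exact permutation p = 0.00794) and 0.52 in dKO against FGF21 KO (SE 0.148, adjusted p = 0.0153, exact permutation p = 0.0159). The call was lost without WT replicate 1, 2 or 3 or UCP1 KO replicate 2 or 3 (adjusted p up to 0.015). Trmt10a, which overlaps Mttp on the opposite strand, was at 0.34 and not called (adjusted p = 0.0212).

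**Figure D3:**
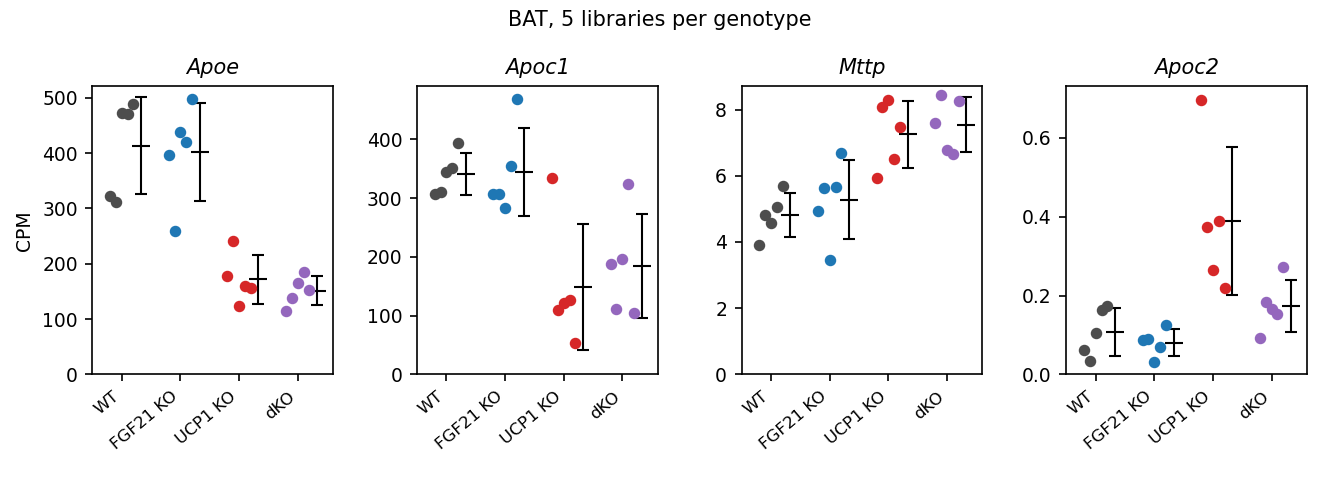
CPM of Apoe, Apoc1, Mttp and Apoc2 in the 20 BAT libraries by genotype. Points are libraries, and the black mark to their right gives the mean ± SD (n = 5). Apoe is lower in all 10 libraries labelled UCP1 KO or dKO (115 to 241 CPM) than in the others (259.7 to 497 CPM), Apoc1 overlaps between genotypes, and Mttp and Apoc2 are higher in every UCP1 KO library than in WT.

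Macrophage markers in BAT moved with Mttp and Apoc2 and opposite to Apoc1 and Apoe. Of 10 markers, 8 were called higher in UCP1 KO against WT and 2 in dKO against FGF21 KO, and all 10 had counts in every group. Their summed level ran from 150.2 to 171 CPM in WT, 132 to 236 in FGF21 KO, 228 to 629 in UCP1 KO and 213 to 363 in dKO. Across the 20 BAT libraries, which share the 4 genotypes, the macrophage score had a Pearson r of 0.78 with Mttp, 0.69 with Apoc2, -0.74 with Apoc1 and -0.47 with Apoe. The lymph node score, at most 0.48 in BAT, had r = -0.84 with Apoc1 and 0.72 with Mttp. With the macrophage score as a covariate, Apoe was still called (-1.69, adjusted p = 0.00258 in UCP1 KO against WT and -1.61, adjusted p = 0.000102 in dKO against FGF21 KO). Apoc2 (2.17, adjusted p = 0.0321) and Mttp (0.44, adjusted p = 0.255) were not, and Apoc1, at -1.20 without the score, stood at -0.41 (adjusted p = 0.683). When the fit included the skeletal muscle score, Mttp stood at 0.55 (adjusted p = 0.0172) in UCP1 KO against WT, and Apoe at -1.57 (adjusted p = 0.000158) in dKO against FGF21 KO. In bulk tissue, fewer cells of a type and less RNA per cell cannot be told apart.

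The liver-type members were higher in dKO than in FGF21 KO libraries of BAT without passing the threshold in edgeR. In dKO against FGF21 KO the log2 fold changes were 1.51 for Apob (SE 0.415, adjusted p = 0.0117), 1.26 for Apoa1 (SE 0.443, adjusted p = 0.0396), 0.92 for Apoa2 (SE 0.276, adjusted p = 0.0196), 1.07 for Apoa4 and 1.06 for Apoa5. Apoc3, with a median ratio of 3.61 to the hepatocyte markers in BAT, is not counted with them here and was at 0.74. Apob had 3.46, 3.69, 3.54, 4.32 and 3.47 CPM in dKO. In FGF21 KO it had 3.19, 1.27, 0.807, 0.519 and 0.563 CPM, so the groups did not overlap, with replicate 1 of FGF21 KO closest to dKO. Without that library Apob (2.22, adjusted p = 0.000309), Apoa1, Apoa2 and Apoa5 were called beside Apoe. DESeq2 called Apob (adjusted p = 0.00144) and Apoa2 (0.00487), as did edgeR with total counts as library size (0.00531 and 0.00525). Most hepatocyte markers moved with these values. Their score was 2.21 to 2.69 in dKO, 0.10 to 1.10 in 4 FGF21 KO libraries and 2.50 in replicate 1, and 0 of 10 markers were called (log2 fold changes from -1.07 to 1.68, median 1.08, smallest adjusted p = 0.0113). With the hepatocyte score as a covariate, Apob was at 0.48 (adjusted p = 0.161) and Apoa1 at 0.16 (adjusted p = 0.701), while Apoe remained called at -1.31 (adjusted p = 0.00316). Apoc3, whose r with that score in BAT was 0.54, stood at 0.73 to 0.96 over the 8 other settings, this covariate included.

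**Figure D4:**
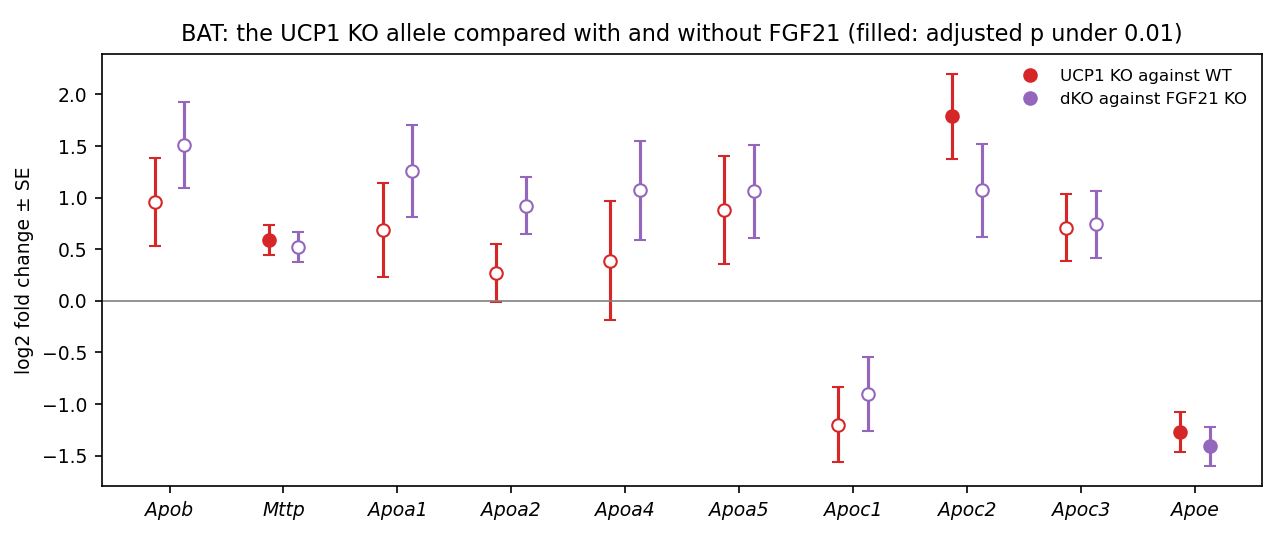
Log2 fold change of the 10 genes in BAT for UCP1 KO against WT and for dKO against FGF21 KO. Points are edgeR estimates, bars are ± SE, and filled points have an adjusted p under 0.01. Apoe lies at -1.27 and -1.41, Mttp at 0.59 and 0.52, and the remaining genes other than Apoc1 lie above 0 with wider bars.

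The effect of FGF21 loss was compared directly. In BAT, no member was called in FGF21 KO against WT (background 0%, with 1345 genes at an unadjusted p under 0.05 and 0 members among them, and 30 genes and 0 members called by DESeq2, which gave no adjusted p for Apoa4, Apoa5 and Apoc2). In UCP1 KO against dKO 0 of 10 members were called against 0.0636% of genes. An unadjusted p under 0.05 was seen in 6 members and 12.9% of genes, and DESeq2 called 0 members and 0.356% of genes. Apoa1, Apoa2, Apoa4, Apoa5 and Apob were lower in UCP1 KO than in dKO but not called (log2 fold changes -1.62 to -1.03, adjusted p = 0.172 to 0.295). In the same libraries the hepatocyte score was 0.88 to 2.44 in UCP1 KO and 2.21 to 2.69 in dKO. Apoe was at 0.18 and Mttp at -0.06. The interaction, the difference between the UCP1 KO effects with and without FGF21, was called for 0 of 10 members and 0% of genes, with 0 members and 5.37% of genes at an unadjusted p under 0.05, and 0 members and 1 gene called by DESeq2.

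In iWAT no member was called, although Apoc2 and Mttp were highest in the libraries labelled UCP1 KO. The background was 0.61% of 17380 genes in UCP1 KO against WT, 0.466% in UCP1 KO against dKO, 0.0115% in dKO against FGF21 KO, 0.00575% in FGF21 KO against WT and 0% for the interaction. Members with an unadjusted p under 0.05 numbered 2, 3, 5, 4 and 5 in these comparisons, against 14.7%, 14.2%, 8.62%, 17.4% and 9.98% of genes, and DESeq2 called 0 in each, against 3.43%, 3.08%, 0.0115%, 0.242% and 0.357% of genes, giving no adjusted p for Apoa1, Apoa2, Apoa5 and Apob. Apoc2 had 0.582, 0.375, 0.431, 0.453 and 0.557 CPM in WT. The libraries labelled UCP1 KO had 1.63, 0.413, 1.22, 1.42 and 1.78 CPM. In 4 of these 5 the level was above all of WT, and replicate 2 was inside the WT range. The log2 fold change was 1.42 against WT (SE 0.409, adjusted p = 0.0736) and 1.41 against dKO (SE 0.408, adjusted p = 0.078), where dKO had a mean of 0.484 ± 0.3 CPM. Brown adipocyte markers, a list that holds Ucp1 itself, moved with Apoc2. Of the 6 markers 4 were called higher in UCP1 KO against WT, and Ucp1 was not among them (adjusted p = 0.0195). The score of the list, in which Ucp1 counts, was 5.32 to 7.75 against 1.51 to 2.96. Across the 20 iWAT libraries the score had a Pearson r of 0.72 with Apoc2, 0.65 with Apoc1, 0.56 with Mttp and -0.67 with Apoe.

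Mttp in iWAT had 6.49, 6.04, 8.27, 7.79 and 7.9 CPM in UCP1 KO. In dKO it had 2.96, 4.67, 3.35, 5.17 and 5.89 CPM, below every UCP1 KO library. The log2 fold change was 0.73 (SE 0.224, adjusted p = 0.101, exact permutation p = 0.00794). In WT Mttp had a mean of 5.34 ± 1.2 CPM, which gave 0.45 for UCP1 KO against WT (SE 0.224, adjusted p = 0.37). Apoe had 2022 ± 511 CPM in UCP1 KO and 2835 ± 600.4 in WT (-0.49, SE 0.212, adjusted p = 0.28), and Apoc1 had 255 ± 79.9 and 183 ± 32.7 (0.48, SE 0.345, adjusted p = 0.614).

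Lymph node content was uneven across the iWAT groups and ran opposite to Apoc1 (r = -0.72 with the lymph node score) and Mttp (-0.49). It was at a score of 4 or more in 2 WT, 1 UCP1 KO, 2 dKO and 4 FGF21 KO libraries. Apoc1 ran from 62.8 to 181 CPM (median 104) in these 9 libraries and from 127 to 318 (median 215) in the 11 others, and Mttp from 2.96 to 6.04 and from 4.67 to 8.27 CPM. When the fit included the lymph node score, Mttp was called in UCP1 KO against dKO (0.65, adjusted p = 0.00806), Apoc2 was at 1.15 (adjusted p = 0.0497) and Apoe at -0.59 (adjusted p = 0.0183) in UCP1 KO against WT. In the 11 libraries with a low score Apoc2 was at 1.68 in UCP1 KO against WT (adjusted p = 0.0153) and Mttp at 0.51 in UCP1 KO against dKO (adjusted p = 0.0494).

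**Figure D5:**
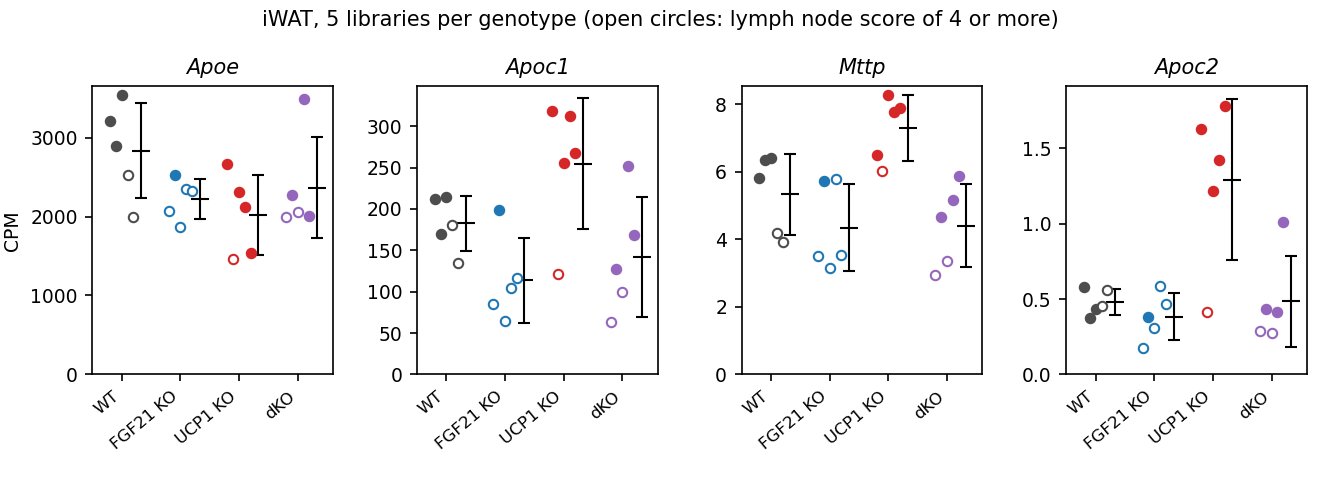
CPM of Apoe, Apoc1, Mttp and Apoc2 in the 20 iWAT libraries by genotype, with mean ± SD (n = 5) to the right of the points. Open circles are libraries with a lymph node score of 4 or more. The lowest Apoc1 and Mttp values of WT, UCP1 KO and dKO are open circles, and 4 of 5 Apoc2 values labelled UCP1 KO (1.22 to 1.78 CPM) lie above every WT value (0.375 to 0.582 CPM).

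A pair of iWAT libraries set the fold changes of the liver-type members. FGF21 KO replicate 4 had 48.3 CPM of Apoa1, 37.3 of Apob, 36.3 of Apoa2, 10.3 of Apoc3 and 5.2 of Apoa5, and a hepatocyte score of 5.80 against 1.00 to 2.07 in the rest of its group. FGF21 KO against WT gave log2 fold changes of 2.91 for Apob and 2.72 for Apoa1 (adjusted p = 0.253 and 0.259). Without this library they were -0.21 and -0.39. For dKO against FGF21 KO the log2 fold change of Apob was -3.78 with the library and -0.66 without it. Its Apoe (2348 CPM) and Mttp (5.79 CPM) were within the range of the other libraries of iWAT. UCP1 KO replicate 4 had 9.51 CPM of Apoa1 (0.517 to 1.52 in the rest of its group), 6 of Apob (0.181 to 1.02) and a hepatocyte score of 3.46 (0.84 to 1.83). In UCP1 KO against WT Apoa1 was at 0.71 and Apob at 0.63 with this library, and at -0.78 and -0.83 without it, and none of these values was called.

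The difference between the fat depots in the UCP1 KO response was tested as UCP1 KO against WT in BAT minus the same in iWAT. None of the 10 members was called, where 7.48% of 15479 genes were, 2 members and 29.3% of genes had an unadjusted p under 0.05, and DESeq2 called 1 member (Apoc1) and 10% of genes. Apoc1 was at -1.65 (SE 0.503, adjusted p = 0.0221), having been lower in BAT and higher in iWAT, and Apoe at -0.77 (SE 0.28, adjusted p = 0.0567). Apoc1 was called without BAT UCP1 KO replicate 1 or without iWAT UCP1 KO replicate 2, with an adjusted p down to 0.000751. Mttp (0.15) and Apoc2 (0.42) had differences smaller than their SE (0.256 and 0.557).

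Liver, the main site of these genes, gave no call. The background was 0.0694% of 14407 genes in UCP1 KO against WT, 0.00694% in dKO against FGF21 KO, 0.229% in FGF21 KO against WT, 0.00694% in UCP1 KO against dKO and 0% for the interaction. In UCP1 KO against WT 1 member, Mttp, and 10.2% of genes had an unadjusted p under 0.05, and no member had one in the others, against 6.75%, 7.54%, 8.25% and 5.16% of genes in the same order. DESeq2 called 0 members in each, and 0.777%, 0.0902%, 0.382%, 0.0416% and 0.0625% of genes. The log2 fold changes of members were between -0.18 and 0.24 in UCP1 KO against WT, between -0.31 and 0.06 in dKO against FGF21 KO, between -0.13 and 0.07 in FGF21 KO against WT, between -0.07 and 0.54 in UCP1 KO against dKO and between -0.12 and 0.41 for the interaction, where Apoa4 was highest in the last pair. Mttp had 432 ± 40.9 CPM in WT, 405 ± 18 in FGF21 KO, 380.3 ± 33.8 in UCP1 KO and 388 ± 34.5 in dKO. Apob had means of 5908 to 6189.6 CPM and an SE of 0.0969 on the log2 scale in UCP1 KO against WT. The smallest SE in that comparison was that of Mttp (0.0816), followed by Apoc1 (0.094). Apoa4 varied most (SE 0.34). It ran from 527 to 1000.2 CPM in UCP1 KO, and dKO replicate 2, which is part of the same fit, had 94.9 CPM against 535 to 762 in the rest of its group.

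In muscle the liver-type members were higher in FGF21 KO, together with hepatocyte markers. None of the 9 members tested was called by edgeR in FGF21 KO against WT, where 0.00662% of 15114 genes were, but 7 members and 12.9% of genes had an unadjusted p under 0.05. An adjusted p under 0.05 was seen in 5 members and 1.17% of genes, and DESeq2 called 6 members and 1.27% of genes. Apob had 0.445, 0.278, 0.426, 0.461 and 1.35 CPM in WT. FGF21 KO had 1.1, 3.37, 3.61, 3.65 and 17.7 CPM, so that the lowest library of FGF21 KO overlapped the highest of WT. The log2 fold changes were 3.34 for Apoc3 (SE 0.625, adjusted p = 0.028), 3.30 for Apob (SE 0.658, adjusted p = 0.028), 3.16 for Apoa1, 2.99 for Apoa4, 2.85 for Apoa2 and 2.80 for Apoa5. The hepatocyte markers were higher in the same libraries, 9 of 10 with a log2 fold change above 2 and an adjusted p under 0.05 but none under 0.01, and their score was -0.03 to 0.96 in WT against 0.90 to 4.43 in FGF21 KO. With that score as a covariate the values were 0.58 for Apoc3, 0.20 for Apob, 0.07 for Apoa1, 0.14 for Apoa2, -0.27 for Apoa4 and -0.07 for Apoa5. Without FGF21 KO replicate 5, the library with the highest score, Apob was at 2.29, Apoa1 at 2.13 and Apoa4 at 1.76, and without replicate 1 Apoa1, Apoa2, Apob and Apoc3 were called.

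Apoe and Mttp differed less between these groups of muscle. Apoe had 65.8 ± 7.71 CPM in WT and 80.8 ± 11.9 in FGF21 KO (0.29, SE 0.126, adjusted p = 0.31), and Mttp 4.36 ± 0.745 and 4.21 ± 0.644 (-0.05, SE 0.119, adjusted p = 0.91). Across the 20 muscle libraries the hepatocyte score had a Pearson r of 0.99 with Apob, 0.67 with Apoe and -0.01 with Mttp. In the other muscle comparisons no member was called. The background was 0.0265% in UCP1 KO against WT, 0.0595% in dKO against FGF21 KO, 0% in UCP1 KO against dKO and 0% for the interaction. Members with an unadjusted p under 0.05 numbered 0, 8, 0 and 5, against 9.81%, 7.96%, 11.7% and 7.48% of genes. DESeq2 called 0 members in each, against 0.172%, 0.112%, 0.132% and 0% of genes. It gave an adjusted p for Apoe and Mttp alone in UCP1 KO against dKO. The members of dKO against FGF21 KO share the FGF21 KO libraries with the comparison above, and Apoc3 was at -2.35 and Apob at -1.96 there.

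Other genes of lipoprotein metabolism were read from 6 lists. In UCP1 KO against WT in BAT, against the background of 25.2%, 2 of 9 other apolipoproteins were called higher, Apoc4 and Apod (1.12), a carrier of small lipids. Of 10 genes of particle assembly and export tested, 2 rose and 2 fell: Soat2, which esterifies cholesterol for lipoproteins, went from 0.0652 to 6.24 CPM (6.53, adjusted p = 4.07e-08), Apobec1, the editing enzyme of Apob RNA, rose by 0.98, and Dgat2, of triglyceride synthesis, and Sort1, a sorting receptor, stood at -0.85 and -0.45. Of 10 plasma lipases and regulators, Pltp, the phospholipid transfer protein, rose (1.03) and Gpihbp1, the capillary anchor of lipoprotein lipase, fell (-0.31). Of 10 receptors, Lrp1, a remnant receptor that binds ApoE, fell from 396 to 177 CPM (-1.16, adjusted p = 4.03e-06), while Lrp8 (1.66), another receptor of ApoE, and Lsr (0.86) rose. Of 2 sterol exporters tested, Abcg1 rose (0.99). Of 9 transcription factors of apolipoprotein genes, 2 rose, Creb3l3 (1.22) and Rora (0.61), and 3 fell, among them Cebpa (-1.27) and Foxo1 (-0.90). The medians of these lists were between -0.42 and 1.12, beside 0.01 over all genes.

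In dKO against FGF21 KO in BAT, against 13.5% of genes, 1 of 10 assembly genes was called (Soat2, 4.93). Of 10 receptors, Lrp8 (1.58) and Sdc1 (0.92), a heparan sulfate proteoglycan of remnant uptake, were called higher and Lrp1 lower (-1.26). Of 9 transcription factors, Creb3l3 (1.24) was higher and Cebpa (-0.91), Foxo1 (-0.84) and Nr1h2 (-0.30), the LXR beta gene, were lower. No other apolipoprotein, lipase or exporter was called there. In iWAT, Ppara, a nuclear receptor of fatty acid oxidation, was the single listed gene called, at 3.38 in UCP1 KO against WT and 3.43 in UCP1 KO against dKO, comparisons that share the UCP1 KO libraries. In liver the acute-phase apolipoprotein Saa3 was called at 4.03 in UCP1 KO against WT (adjusted p = 0.00869), 1 of 9 in its list. In the comparison of depots, against 7.48% of genes, 2 of 10 assembly genes were called, Soat2 (5.06) and Cideb (-2.83), a lipid droplet protein of particle lipidation, and 1 of 9 transcription factors, Ppara (-4.03). In muscle 0 genes of these lists, of which 2 to 10 were tested in each, were called in UCP1 KO against WT by edgeR. There 1 of 8 other apolipoproteins had an unadjusted p under 0.05, as did 9.81% of all genes.

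Genes whose log2 CPM followed the members most closely were sought over the 20 libraries of a tissue, which share genotype and depth, as a description. In BAT, Apoe was most like St6galnac5, Pla2g16 and Slc1a3 (r = 0.95 each) and Apoc1 most like Mccc2, Ndufb3 (0.96 each) and Gnpat (0.95). Apoe and Apoc1 had r = 0.73 with each other. In iWAT, Apoe was most like C4b (0.96), Dnmbp and Asph (0.89 each), and Apoc1 most like Cnpy2 (0.98), Tmem53 and Gm5617 (0.96 each), with r = 0.40 between Apoe and Apoc1. In liver, Apob was most like Usp9x (0.94), Tbc1d8b and Ube4a (0.91 each), Apoe most like Drap1, Oaz1 and Gnb2 (0.93 each), Apoa2 most like Mcee and Mrps18c (0.90 each) and Apoc3 most like Ndufa6 and Fxyd1 (0.92 each). Apoa1 followed Kcnn2 (0.87), Apoa4 followed Fabp2 (0.88), Apoa5 followed Cideb (0.83), Apoc1 followed Ttc36 (0.88), Apoc2 followed Anxa4 (0.85) and Mttp followed Osbpl11 (0.82). Among the members in liver the highest pair was Apoa2 with Apoc3 (0.85), and Apob and Mttp had r = 0.25. With every other member Apob had a negative r, from -0.25 (Apoc2) to -0.83 (Apoc3).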

How the data were processed

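RNA from 4 tissues was sequenced as 80 libraries, and their groups were taken from the labels. STAR alignments to mm10 (GRCm38) were counted by the authors per gene of the UCSC known gene annotation with HTSeq, and they deposited raw read counts per gene symbol, 1 library per file, without normalization. Whether counting used strand is not given in the sources used here. Rows that name no gene held at most 3.42e-05% of a library's counts and were left out. Between 28691377 and 50380696 reads per library were counted. No pair of libraries of a group was identical (160 pairs, smallest chi-square per degree of freedom 12.66).

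From these counts, genes whose counts exceeded 15 in some library and 75 in sum, and were 0 in at most 10 libraries (15 across the WT tissues) were tested with edgeR's quasi-likelihood test (version 4.0.16, R 4.3.3, limma 3.58.1) with TMM factors, in 1 fit per tissue over its 20 libraries with 1 mean per genotype. Benjamini-Hochberg adjustment ran over all genes tested, and genes with an adjusted p under 0.01 were called. Each SE was derived from the F statistic and the estimate. Log2 CPM used a prior count of 2. A marker score averages log2(CPM + 0.1) over its markers, with CPM scaled to total counts. Two-sided exact permutation tests on log2 CPM cannot give a p under 0.00794. DESeq2 (version 1.42.0), RLE factors, no filter, a threshold of 0.05, fits restricted to the genotypes compared, skeletal muscle or lymph node scores as covariates and leaving out each library were set as alternatives. Hepatocyte or macrophage scores as covariates, iWAT libraries with a low lymph node score and total counts as library size were chosen after seeing the data. Named genes are the members, at most 4 called genes of each list by size of change and the 3 most correlated genes. The members and lists were chosen with earlier results of these data known. The code was tested on simulated counts. Gene positions are from GENCODE M21 and promoter windows from RefSeq, both on GRCm38.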

Additional observations from a re-analysis of the deposited data

Results flagged for a closer look

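Each group of 5 libraries was searched for a library far from the rest (a gap above 0.71 of the group's range in log2 CPM with a prior count of 2, beside which the CPM are given here). Of 156 groups 14 were marked, and chance alone marks about 1 in 20. In liver, dKO replicate 2 was lowest for Apoa1 (3117 CPM, others 5947 to 7176) and Apoa4 (94.9 CPM, others 535 to 762), with a hepatocyte score of 12.48, inside the range of the other liver groups. In iWAT, FGF21 KO replicate 4 was highest for Apoa1 (48.3 CPM), Apob (37.3), Apoa2 (36.3), Apoa5 (5.2) and Apoa4 (1), with a hepatocyte score of 5.80. Also in iWAT, UCP1 KO replicate 2 was lowest for Apoc1 (121 CPM, others 256 to 318) and Apoc2 (0.413 CPM, others 1.22 to 1.78), with a lymph node score of 7.28. In the same depot dKO replicate 4 was highest for Apoe (3491 CPM, others 1999 to 2269.7) and WT replicate 5 lowest for Apob (0.291 CPM, others 1.04 to 1.59). In BAT, WT replicate 1 was lowest for Apoa5 (0.0608 CPM, others 0.14 to 0.174) and dKO replicate 4 highest for Apob (4.32 CPM, others 3.46 to 3.69). In muscle, WT replicate 5 was highest for Apoa1 (1.76 CPM, others 0.464 to 0.681).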

How the results depend on the processing

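No paired analysis was possible because the labels carry no replicate numbers, and those used here only name libraries in the order listed. The number of members called kept its side of the 1.5-fold limit under the alternatives with these exceptions. In BAT, UCP1 KO against WT had 3 members called and 1 with the macrophage score as a covariate. In BAT, dKO against FGF21 KO had 1, and 5 at an adjusted p under 0.05 (28% of all genes), 4 with DESeq2, 4 with total counts as library size and 1 to 5 when a library was left out (5 without FGF21 KO replicate 1, 2 without FGF21 KO replicate 5 and 2 without UCP1 KO replicate 2). In iWAT, UCP1 KO against dKO had 0, and 1 when the fit included the lymph node score. In muscle, FGF21 KO against WT had 0, and 5 at an adjusted p under 0.05 (1.17% of all genes), 6 with DESeq2 and 0 to 4 when a library was left out. UCP1 KO against WT in BAT minus iWAT had 0, and 1 at an adjusted p under 0.05 (15.7% of all genes), 1 with DESeq2 and 0 to 1 when a library was left out. BAT against iWAT in WT had 5, and 2 with total counts. Counts of called genes over all genes also passed the 1.5-fold limit. They rose in 42 and fell in 30 combinations of a comparison and a setting, and rose in 27 and fell in 106 when a library was left out. Where no share of all genes stands beside a count of members, a change in it cannot be read as particular to them. Among members called in at least 1 setting or with an adjusted p under 0.05, directions turned for Apoa4 (-0.27) and Apoa5 (-0.07) in muscle FGF21 KO against WT with the hepatocyte score as a covariate, for Mttp in WT with total counts (-0.23 in BAT against iWAT and 0.27 in iWAT against muscle), and for Apoa1 in iWAT against muscle of WT, which stood at 0.01 and ran from -0.15 to 0.52 when a library was left out. With total counts Apoa1 (0.97, adjusted p = 0.00932) and Apoa2 (1.12, adjusted p = 0.000613) were called there. The cause was not tested. For the other 200 combinations of a member and a comparison, 262 of 5344 values changed sign. These included Apob and Apoa1 in iWAT FGF21 KO against WT without FGF21 KO replicate 4 (-0.21 and -0.39) and, with total counts in WT, Apoa1 (-0.44), Apoa4 (-0.61), Apoa5 (-0.58) and Apob (-0.38) in BAT against iWAT and Apoa4 (0.81), Apoa5 (0.26) and Apob (0.86) in iWAT against muscle. With the longest transcript as length, 16 of 40 levels per length in WT moved by more than 1 SD, such as Apoe in liver (6208) and Apoc1 in BAT (642). With total counts the median of all genes moved by 0.31 in BAT for UCP1 KO against WT and by 0.23 for dKO against FGF21 KO. At 1 to 6 counts per WT library, depth limits what can be said of Apoc2 in BAT.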
